A study of Mus musculus with 6 samples.

Results

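The 6 genes described here, Twist1, Twist2, Prrx1, Foxc2, Runx1 and Runx2, encode DNA-binding proteins known from mesenchyme, bone and blood. They were matched by gene symbol to the probe sets of an Affymetrix mouse array, using only probe sets annotated with 1 symbol. Of the 6, 5 were measured, by 15 probe sets, among 18193 genes in all. No probe set was paired with Runx2 in the annotation used here, so Runx2 was not analysed. Twist1, Twist2 and Foxc2 had 1 probe set each, and Prrx1 and Runx1 had 6 each. Each gene is represented by its brightest probe set on average over the 6 arrays, and its further probe sets serve as a check.

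The cells were NMuMG, immortalised epithelial cells of the normal mouse mammary gland, grown in medium with serum and insulin. Control cells received vehicle. The TGF-β group received 4 ng/ml of TGF-β, a cytokine that turns these epithelial cells towards a mesenchymal shape, for 11 days. The withdrawal group had the same 11 days of TGF-β and then 13 days without it. There were 2 arrays per group, and so few arrays limit how precise any value can be. Nothing in the labels says that replicate arrays came from separate cultures, so a p-value reflects the spread between these samples alone, and that spread may be technical. Withdrawn cells were also in culture for longer after treatment began, so withdrawal and time cannot be told apart.

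Twist1 and Twist2 are basic helix-loop-helix proteins that bind E-box sequences as dimers, usually with an E protein (Tcf3, Tcf4 or Tcf12). Prrx1 is a paired-type homeodomain protein of limb and craniofacial mesenchyme, and Foxc2 is a forkhead protein of mesenchyme and lymphatic vessels. Runx1 and Runx2 share the Runt domain, bind DNA with the partner Cbfb, and are best known as regulators of blood stem cells and of bone. Twist1, Prrx1 and Foxc2 are known for their part in epithelial-mesenchymal transition, the loss of epithelial junctions and gain of mesenchymal traits that TGF-β induces in NMuMG cells.

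The promoters of Twist1, Twist2, Prrx1 and Runx1 are shown as a description. Twist1 and Prrx1 rose at both steps, by unlike amounts, while Twist2 fell under TGF-β. Whether promoter letters relate to these changes was not tested. RefSeq's promoter table (build GRCm38.p6) held 5 of the 6 members (all but Foxc2), and each entry covers 250 bases before to 50 after a transcription start. Capitals mark matches on either strand to CAGACA, which holds the CAGAC core bound by Smad proteins, in Twist1; to GGGCGG, the GC box bound by Sp factors, in Twist2; to TAATTA, a homeodomain core, in Prrx1; and to TGTGGT, the Runx site, in Runx1. The Runx1 entry is the upstream of the 2 starts in the table. They lie at chr12:33957421-33957720 (plus strand), chr1:91801211-91801510 (plus strand), chr1:163313601-163313900 (minus strand) and chr16:92826025-92826324 (minus strand).
Twist1: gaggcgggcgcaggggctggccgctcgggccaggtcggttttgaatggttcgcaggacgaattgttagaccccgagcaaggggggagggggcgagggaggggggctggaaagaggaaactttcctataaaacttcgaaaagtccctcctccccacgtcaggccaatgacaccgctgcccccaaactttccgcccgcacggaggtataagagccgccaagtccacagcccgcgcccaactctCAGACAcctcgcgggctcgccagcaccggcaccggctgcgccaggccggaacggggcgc
Twist2: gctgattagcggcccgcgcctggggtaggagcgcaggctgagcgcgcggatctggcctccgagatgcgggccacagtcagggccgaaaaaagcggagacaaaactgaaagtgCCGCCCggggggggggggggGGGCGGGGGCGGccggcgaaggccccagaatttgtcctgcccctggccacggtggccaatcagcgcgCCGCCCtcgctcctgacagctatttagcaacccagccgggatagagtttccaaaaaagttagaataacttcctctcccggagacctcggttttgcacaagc
Prrx1: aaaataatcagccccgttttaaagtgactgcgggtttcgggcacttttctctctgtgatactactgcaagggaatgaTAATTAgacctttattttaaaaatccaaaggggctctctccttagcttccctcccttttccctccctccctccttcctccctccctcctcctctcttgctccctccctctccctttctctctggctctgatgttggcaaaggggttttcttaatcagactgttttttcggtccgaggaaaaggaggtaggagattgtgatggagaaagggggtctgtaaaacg
Runx1: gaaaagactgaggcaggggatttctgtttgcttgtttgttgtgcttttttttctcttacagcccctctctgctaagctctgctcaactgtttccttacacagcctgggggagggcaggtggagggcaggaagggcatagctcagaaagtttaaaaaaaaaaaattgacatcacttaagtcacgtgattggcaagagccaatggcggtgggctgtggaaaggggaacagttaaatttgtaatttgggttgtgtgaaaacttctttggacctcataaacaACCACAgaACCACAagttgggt

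The Twist1 and Twist2 windows were rich in G and C, at 66.0% and 64.7%, against a median of 52.7% over the 32851 promoters of the table. The Twist1 window also held 1 match to GGGCGG, not in capitals, against 4 in Twist2. The Prrx1 window was at 47.7% G and C. None of these 3 windows held an E-box, CANNTG, which 72.3% of all promoters held. The upstream Runx1 window held 3 E-boxes, of which 1 also read CAGGTG (20.2% of promoters), the form bound by Snail and Zeb proteins. It also held 2 Runx sites, which begin at positions 29 and 37 after the start and were read on the opposite strand; 16.8% of promoters held at least 1. The Runx2 window held a like pair, at 24 and 32, and a further match before the start. The downstream Runx1 window, at 69.0% G and C, held 0 Runx sites and 0 E-boxes. CAGACA occurred in 21.0% of promoters, GGGCGG in 35.7% and TAATTA in 5.29%. The Twist2 and Prrx1 windows and both Runx1 windows held 0 matches to CAGACA, though Prrx1 and Runx1 also rose under TGF-β. The capitals mark a different motif in each window, picked from a longer list of motifs that were scanned. These matches describe letters, not binding, and the arrays do not tell which Runx1 start was used.

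The deposited values are log2 expression from RMA, which sets all arrays to a common distribution, so a difference of 1 is a doubling relative to that common level. Array medians lay between 5.77 and 5.79, and the median absolute difference between replicate arrays was 0.0784 to 0.0934, against 0.152 to 0.209 between groups. The description field swaps the state names of the treated groups relative to the titles and treatment entries, which were followed here. The smooth muscle actin gene Acta2, which TGF-β is known to induce, was at 8.81 in control, 13.62 on the arrays titled TGF-β and 8.14 on those titled withdrawal. RMA values from arrays scaled to added spike RNAs shift every gene: the median of all genes under TGF-β went from -0.01 to -0.30 with poly-A spikes and -0.17 with hybridization spikes. For withdrawal against TGF-β it went from -0.03 to 0.12 and -0.25, and for withdrawal against control from -0.04 to -0.18 and -0.42. The calls over all genes, 2726 higher and 3175 lower under TGF-β, became 818 and 5334 or 1319 and 4408. For withdrawal against TGF-β, 3960 and 4023 became 3506 and 1500 or 2146 and 7772, and for withdrawal against control, 3943 and 4292 became 1967 and 3730 or 1655 and 12634. Changes are therefore given relative to the arrays' common level. After spike scaling limma also gave every gene the same SE, 0.173 with poly-A and 0.134 with hybridization spikes, against a median of 0.0701 otherwise. A call made or lost there thus reflects that SE as well as the shift, and a gene can lose its call though its difference grew.

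In the first comparison, of 11 days of TGF-β against control, Twist1, Prrx1, Foxc2 and Runx1 rose and Twist2 fell. The rises were between 2.32-fold and 5.60-fold. A gene is called where the adjusted p of limma, fitted to all genes and adjusted by Benjamini-Hochberg, is under 0.05. Of the 5 measured members 4 were called higher and 1 lower, against 15.0% of all genes called higher and 17.5% lower (32.4% in all). The arrays of the groups did not overlap for any of the 5, as for 64.9% of all genes.

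Twist1 read 6.06 and 5.93 on the control arrays, 7.89 and 7.64 on the TGF-β arrays and 8.20 and 8.25 on the withdrawal arrays. It was lowest in control and highest after withdrawal, with no overlap between groups. Its control arrays lie just above the array medians and no detection calls were used, so that level is not separated from background. Under TGF-β Twist1 rose by 1.77 ± 0.094 (SE), or 3.41-fold, with limma adjusted p = 5.69e-05. After withdrawal it stood another 0.46 ± 0.094 above the TGF-β arrays (adjusted p = 0.00891), and 2.23 above control (adjusted p = 1.52e-05). The step after withdrawal was 0.24 with adjusted p = 0.106 in limma after scaling to hybridization spikes. Without the second withdrawal array it was 0.44, much as before, with adjusted p = 0.0511 and an SE that assumes the lone array to vary like the other groups.

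Prrx1 read 5.70 and 5.73 in control, 6.87 and 6.98 under TGF-β and 8.44 and 8.59 after withdrawal. Its levels rose at each step, and the step after withdrawal was the larger in value. It rose by 1.21 ± 0.070 (SE) under TGF-β (limma adjusted p = 8.04e-05), a 2.32-fold change. After withdrawal it rose by a further 1.59, 3.01-fold (adjusted p = 1.99e-05), and was then 2.80 above control, 6.98-fold (adjusted p = 4.33e-06). Its control arrays lie just under the array medians, and no detection calls were used here, so that level is not separated from background and its differences from control may be understated.

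Foxc2 read 5.21 and 4.70 in control, 7.35 and 7.53 under TGF-β and 6.31 and 6.41 after withdrawal. The TGF-β arrays were highest and the withdrawal arrays lay between them and control. Foxc2 rose by 2.49 ± 0.17 (SE) under TGF-β, 5.60-fold (limma adjusted p = 1.45e-04). Its 95% interval, 2.07 to 2.90, overlaps that of Runx1, 2.05 to 2.40, and without the second control array the rise of Foxc2 was 2.23 and that of Runx1 2.31. It then fell by 1.08 on withdrawal (adjusted p = 0.00288) and remained 1.41 above control, 2.65-fold (adjusted p = 8.65e-04). Its control arrays differed by more than those of any other member, with an SD of 0.363. They too lie under the array medians, so the same limit holds.

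Runx1 read 6.84 and 7.00 in control, 9.11 and 9.17 under TGF-β and 8.65 and 8.70 after withdrawal. As with Foxc2, the TGF-β arrays were highest and the withdrawal arrays between, but nearer to TGF-β than to control. The rise under TGF-β was 2.22 ± 0.072 (SE), 4.67-fold (limma adjusted p = 9.27e-06). On withdrawal Runx1 fell by 0.47, 1.38-fold (adjusted p = 0.00281), and stayed 1.76 above control, 3.38-fold (adjusted p = 1.42e-05). The fall on withdrawal was -0.32 and not called after poly-A spike scaling (adjusted p = 0.185).

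Twist2 read 8.13 and 8.10 in control, 7.03 and 6.99 under TGF-β and 7.70 and 7.73 after withdrawal. Control was highest, TGF-β lowest and withdrawal between, the reverse of Foxc2 and Runx1. Twist2 fell by 1.10 ± 0.051 (SE) under TGF-β, 2.15-fold (limma adjusted p = 3.30e-05). It rose by 0.70 on withdrawal, 1.63-fold (adjusted p = 1.13e-04), and was still 0.40 below control (adjusted p = 0.00112), a gap that read -0.78 after hybridization spike scaling. The paralogs Twist1 and Twist2, which share a nearly identical helix-loop-helix domain, thus differed in direction under TGF-β, with 95% intervals of 1.54 to 2.00 and -1.23 to -0.98. Both were higher after withdrawal than under TGF-β.

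**Figure D1:**
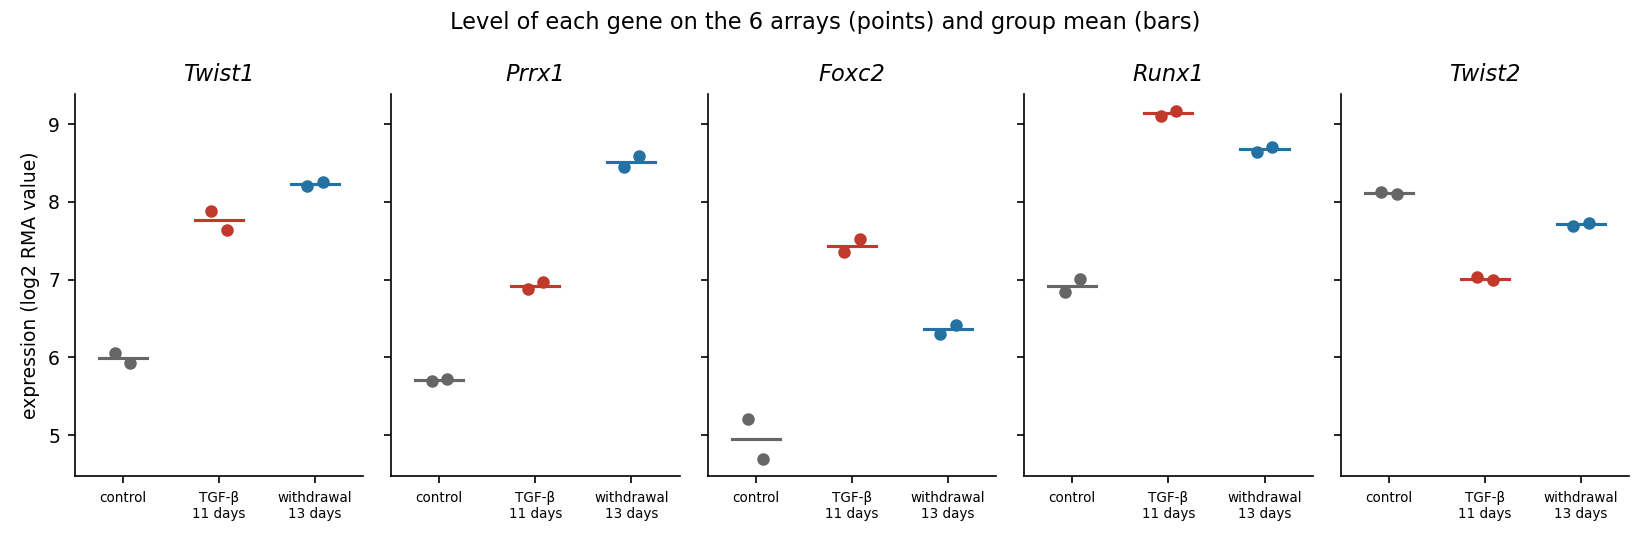
Log2 RMA level (vertical axis) of each gene on the 2 control, 2 TGF-β and 2 withdrawal arrays, with points for arrays and bars for group means. Twist1 and Prrx1 step up at both changes, Foxc2 and Runx1 peak under TGF-β, and Twist2 dips there; levels of different genes come from different probes and are not compared.

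In the second comparison, of withdrawal against TGF-β, the question was which changes went back once the cytokine was removed. Twist1, Prrx1 and Twist2 were higher after withdrawal, and Foxc2 and Runx1 lower. So 3 of 5 were called higher and 2 lower, against 21.8% and 22.1% of all genes (43.9% in all). In Foxc2, Runx1 and Twist2 the change ran back towards control, and in Twist1 and Prrx1 it ran further away. The groups did not overlap in any of the 5 (69.0% of all genes).

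The third comparison asked what still differed from untreated cells 13 days after the cytokine was removed. All 5 measured members were still called: Twist1, Prrx1, Foxc2 and Runx1 higher and Twist2 lower, against 21.7% and 23.6% of all genes (45.3% in all). The groups did not overlap in any of the 5 (70.5% of all genes). Prrx1 stood at 2.80 (95% interval 2.63 to 2.98), or 1.82 as the mean of its probe sets, which is below Twist1, and Twist2 at -0.40 (-0.52 to -0.27). Twist1 lay at 2.23 (2.00 to 2.46), Runx1 at 1.76 (1.58 to 1.94) and Foxc2 at 1.41 (0.99 to 1.82). As the mean of its probe sets, Runx1 stood at 0.83, which is below Foxc2. The intervals of Runx1 and Foxc2 overlap, and no test between genes was made. The first and the third comparison share the control arrays, and each shares arrays with the second.

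**Figure D2:**
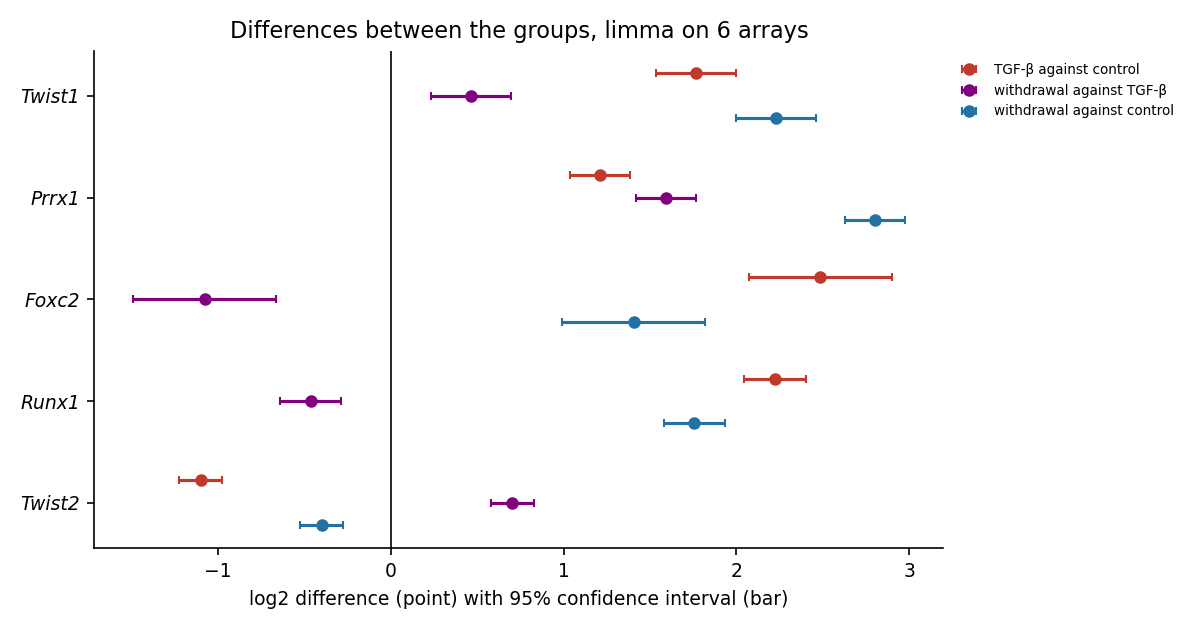
Log2 difference (horizontal axis) of each gene in the 3 comparisons, with points for limma estimates on 6 arrays and bars for 95% confidence intervals. No interval crosses 0, and the withdrawal against TGF-β points lie to the right for Twist1, Prrx1 and Twist2 and to the left for Foxc2 and Runx1.

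The further probe sets of Prrx1 and Runx1 that were called moved in the direction of the representative, by different amounts. In a fit over all probe sets, 4 of 6 Prrx1 probe sets were called higher under TGF-β and 5 of 6 higher on withdrawal against TGF-β, with 0 lower. The probe set 1425528_at read 5.66 and 5.49 in control, 6.78 and 6.70 under TGF-β and 8.75 and 8.91 after withdrawal, so its withdrawal step, 2.09, was larger than that of the representative. Probe set 1439774_at rose by 1.08 and then by 1.62, and 1432129_a_at by 0.41 and then by 0.93. Probe set 1425527_at differed by 0.09 under TGF-β (limma adjusted p = 0.668) and rose by 0.55 on withdrawal. The last, 1458004_at, lay between 3.21 and 3.59 on all 6 arrays and was called in no comparison.

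Of the 6 Runx1 probe sets, 5 were called higher under TGF-β and 4 lower on withdrawal against TGF-β, and 3 were still called higher against control. Besides the representative, 1422865_at rose by 1.73 and 1440878_at by 1.53 under TGF-β, and both remained above control, by 1.31 and 1.19. Probe set 1427650_a_at rose by 0.87 under TGF-β and was 0.38 above control after withdrawal, which was not called (adjusted p = 0.0634). Probe sets 1452531_at and 1452530_a_at differed little, by 0.31 (called) and 0.23 (adjusted p = 0.0604). Which transcripts each probe set reads was not tested. Taken as the mean of all its probe sets, Runx1 rose by 1.15 instead of 2.22 under TGF-β and stood 0.83 instead of 1.76 above control. Prrx1 rose by 0.69 instead of 1.21 under TGF-β and stood 1.82 instead of 2.80 above control. All these calls held.

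**Figure D3:**
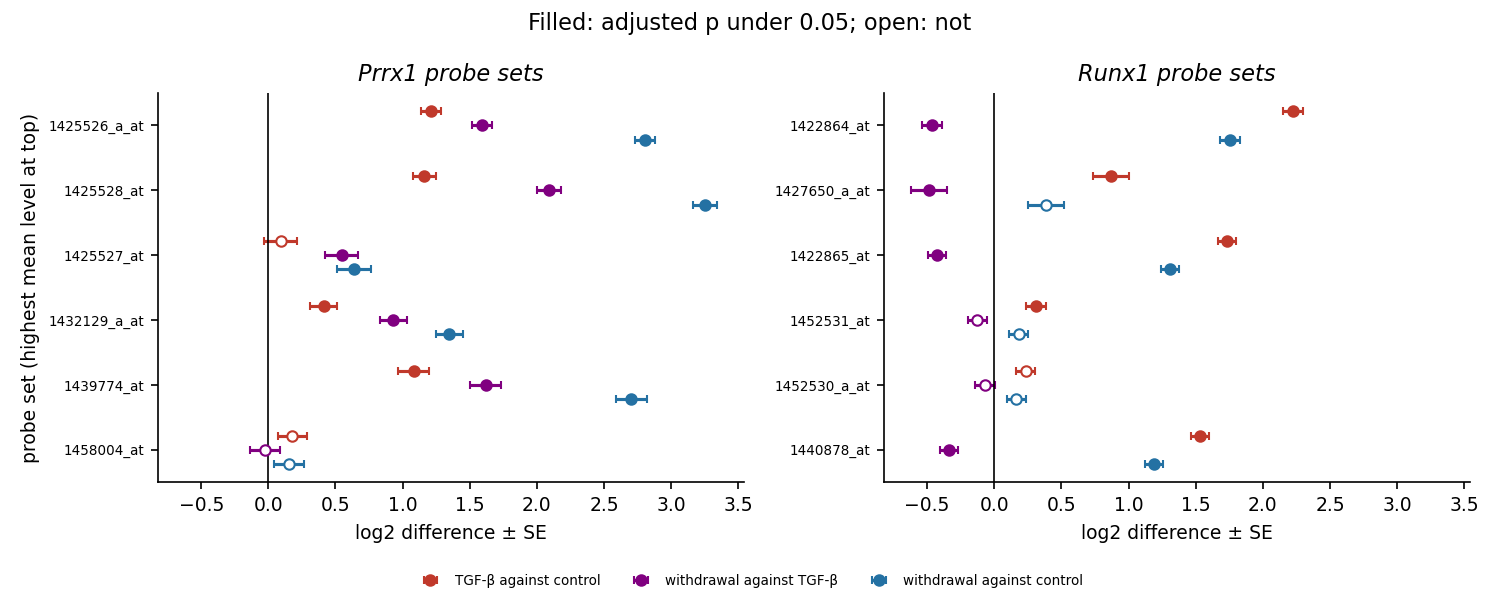
Log2 difference with its SE (horizontal axis) for the 6 probe sets of Prrx1 and the 6 of Runx1 in the 3 comparisons, filled where the adjusted p is under 0.05 and open where not. In Prrx1, 5 of 6 probe sets lie to the right on withdrawal against TGF-β, and in Runx1 all 6 lie to the left, 4 of them called.

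Close relatives of the members were taken as a list of 18 symbols, of which 16 were measured. Under TGF-β 5 rose, 1 fell and 10 were not called, with a median difference of 0.05 against -0.01 over all genes. Of all genes 15.0% rose and 17.5% fell. After poly-A spike scaling 1 relative rose and 1 fell (median -0.24). Prrx2, the paralog of Prrx1, read 7.26 and 7.28 in control, 7.79 and 7.73 under TGF-β and 8.47 and 8.54 after withdrawal. Like Prrx1 it rose at both steps, by 0.50 and 0.74 (limma adjusted p = 0.00103 and 1.21e-04). Scx, a helix-loop-helix factor of tendon, rose by 0.66 and 0.75. Foxc1, the paralog of Foxc2, rose by 0.46 and then by 0.42, whereas Foxc2 fell at the second step.

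Msc, which encodes the helix-loop-helix repressor musculin, rose by 1.13 under TGF-β and fell by 1.22 on withdrawal, ending at a difference of -0.09 from control that was not called, or -0.47 and called after hybridization spike scaling. The short-stature homeobox gene Shox2 likewise rose by 0.66 and fell by 0.70. Foxf2, a forkhead gene of mesenchyme, fell by 0.61 and again by 0.46. Runx3, the third Runx gene, differed by -0.05, 0.16 and 0.11 in the 3 comparisons and was called in none (limma adjusted p = 0.747, 0.209 and 0.364). On withdrawal against TGF-β 4 relatives rose and 4 fell (median -0.0034, all genes -0.03), against 21.8% and 22.1% of all genes. After withdrawal 4 relatives were higher and 2 lower than control (median -0.03, all genes -0.04), or 3 and 11 with hybridization spikes. Of all genes 21.7% were higher and 23.6% lower than control before spike scaling. After poly-A spike scaling the TGF-β differences of Scx, Prrx2, Shox2 and Foxc1 were 0.37, 0.21, 0.37 and 0.17 and the withdrawal difference of Foxf2 was -0.31, and after hybridization spike scaling the Foxc1 steps were 0.30 and 0.20, none of them called.

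Partners and cofactors, 18 genes, all measured, were called lower more than higher under TGF-β and higher more than lower after withdrawal, by count. Under TGF-β 2 rose and 5 fell (median -0.14, all genes -0.01; 0 and 10 with poly-A spikes), on withdrawal 9 rose and 1 fell (median 0.17, all genes -0.03), and 9 were higher and 2 lower than control (median 0.20, all genes -0.04). Of all genes 15.0% rose and 17.5% fell under TGF-β, 21.8% rose and 22.1% fell on withdrawal, and 21.7% were higher and 23.6% lower than control. With hybridization spikes, which moved all genes down, the list had 7 higher and 4 lower on withdrawal (median -0.05) and 3 higher and 8 lower against control (median -0.18). Among the E proteins that pair with Twist factors, Tcf4 rose by 0.53 under TGF-β and was 0.51 above control after withdrawal; with poly-A spikes these were 0.24 and 0.37, and with hybridization spikes the latter was 0.14, not called. Tcf3 differed by 0.21 under TGF-β (limma adjusted p = 0.0507) and was 0.26 above control after withdrawal, or -0.12 (not called) after hybridization spike scaling. Tcf12 differed by -0.15 (adjusted p = 0.0699; -0.44 and called with poly-A spikes) and rose by 0.17 on withdrawal, or -0.05 (not called) with that scaling. Cbfb, the partner subunit of Runx proteins, differed by -0.13 and -0.09 at the 2 steps, neither called (-0.42 at the first with poly-A spikes and -0.30 at the second with hybridization spikes, both called), and was 0.22 below control after withdrawal (adjusted p = 0.0152; -0.36 and not called after poly-A spike scaling).

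The Groucho co-repressor genes, whose products bind Runx proteins, moved in different directions. Tle3 read 9.58 on both control arrays, 9.06 and 9.07 under TGF-β and 10.12 and 10.11 after withdrawal. It thus fell and then rose past control, by 0.54, though by 0.40 and 0.16, not called, after poly-A and hybridization spike scaling. Tle2 rose by 0.38 and then by 1.28, while Tle4 fell by 0.73 and again by 0.26. The first Tle2 step was 0.09 or 0.22 with the 2 spike scalings and the second Tle4 step -0.11 with poly-A spikes, not called. The acetyltransferase gene Kat6b and the kinase gene Hipk2, whose products bind Runx proteins, rose by 0.98 and 0.96 on withdrawal. Ep300, a further acetyltransferase gene, fell by 0.45 under TGF-β and rose by 0.59 on withdrawal.

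**Figure D4:**
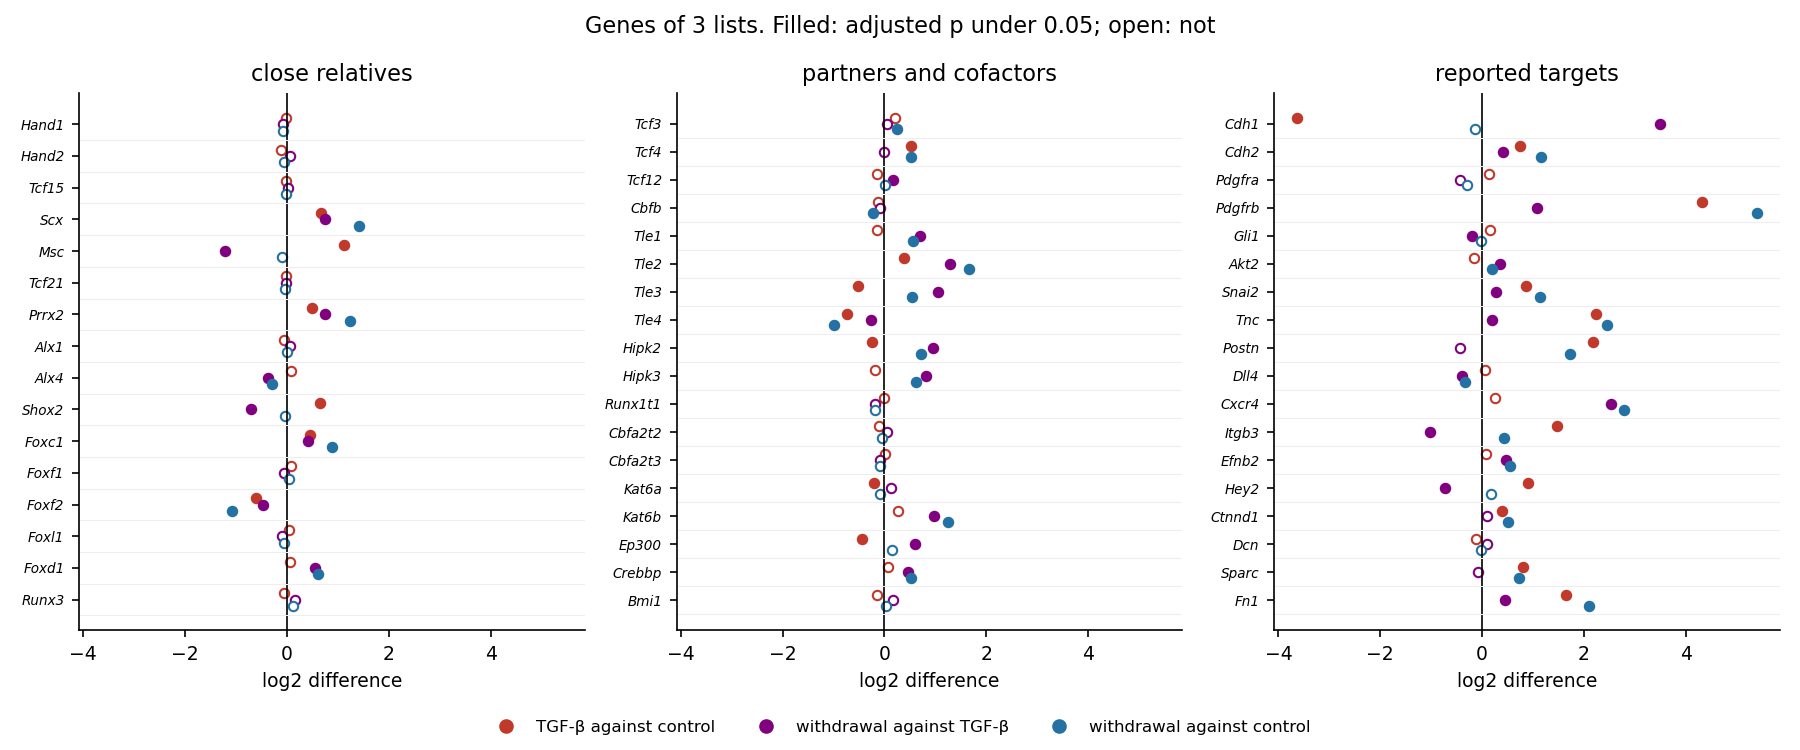
Log2 difference (horizontal axis) of the measured genes of 3 lists, 16 close relatives, 18 partners and cofactors and 18 reported targets, in the 3 comparisons, filled where the adjusted p is under 0.05 and open where not. Prrx2, Scx and Foxc1 lie to the right in all 3 comparisons, and Tle2 and Kat6b lie farthest right among the cofactors on withdrawal against control.

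Reported targets of Twist1, Prrx1 and Foxc2 formed a list of 18 genes, all measured. Under TGF-β 10 rose and 1 fell (median 0.57, all genes -0.01), against 15.0% and 17.5% of all genes. After withdrawal 12 were higher and 1 lower than control (median 0.52, all genes -0.04), against 21.7% and 23.6% of all genes. With poly-A spikes the counts of the list were 9 and 3, and 8 and 2. With hybridization spikes they were 9 and 1, and 8 and 5. Many are also known to respond to TGF-β in other ways, and the list was chosen with earlier results of these data known. Its counts beside those of all genes are thus a description and no test of these factors. Pdgfrb, a growth factor receptor gene reported as a Foxc2 target, read 4.42 and 4.62 in control, 8.86 and 8.81 under TGF-β and 9.89 and 9.94 after withdrawal. It rose at both steps, as Twist1 and Prrx1 did and Foxc2 did not. Whether any of these factors acts on the listed genes in these cells was not tested. Tnc, a matrix glycoprotein gene reported as a Prrx1 target, rose by 2.25 and by a further 0.20, which was -0.02 and not called after hybridization spike scaling. Postn, which encodes periostin, rose by 2.17, and its difference on withdrawal was -0.44 (limma adjusted p = 0.129), or -0.66 and called after hybridization spike scaling.

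Cdh1, the E-cadherin gene that Twist1 is reported to repress, read 11.99 and 11.89 in control, 8.37 and 8.25 under TGF-β and 11.80 and 11.79 after withdrawal. Its withdrawal arrays lay 0.14 below control, which was not called (limma adjusted p = 0.136). After hybridization spike scaling that difference was -0.52 and called. Twist1 was at its highest after withdrawal. Whether Twist1 acts on Cdh1 in these cells was not tested. The chemokine receptor gene Cxcr4, reported as a Foxc2 target, read 4.10 and 3.71 in control and 4.06 and 4.25 under TGF-β, and rose by 2.54 on withdrawal to 6.56 and 6.83. The integrin gene Itgb3 rose by 1.47 under TGF-β and fell by 1.03 on withdrawal, in the order of levels seen for Foxc2. On withdrawal against TGF-β 9 of the 18 rose and 4 fell (median 0.15, all genes -0.03), against 21.8% and 22.1% of all genes. After hybridization spike scaling, however, 3 of the 18 rose and 6 fell (median -0.07).

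Runx and osteoblast target genes, 13 measured of 16, came next. Under TGF-β 3 rose and 1 fell (median 0.03, all genes -0.01), against 15.0% and 17.5% of all genes. With poly-A and hybridization spikes the list had 2 and 4, and 2 and 3. On withdrawal 2 rose and 3 fell (median -0.05), against 21.8% and 22.1% of all genes. With hybridization spikes the list had 1 and 6 there (median -0.27). Then 3 were higher and 1 lower than control (median -0.01), against 21.7% and 23.6% of all genes. With hybridization spikes the list had 1 and 9 against control. The bone-defining genes Ibsp, Sp7 and Dmp1 were called in no comparison, with differences between -0.15 and 0.10. All 3 were called lower than control after hybridization spike scaling (-0.50, -0.41 and -0.39), where the median of all genes was -0.42. Ibsp lay between 3.28 and 3.68 on all arrays, and Dmp1 between 3.07 and 3.49. Both are far under the array medians and may sit on background. The collagen genes Col1a1 and Col1a2 rose by 3.83 and 1.42 under TGF-β and fell by 3.41 and 0.49 on withdrawal, where Col1a2 was -0.34 and not called after poly-A spike scaling. Mmp13, a collagenase gene and Runx2 target in bone, went the other way to Runx1 at both steps. It read 7.86 and 7.84 in control, 3.80 and 4.29 under TGF-β and 8.26 and 8.33 after withdrawal. After withdrawal Mmp13 stood 0.44 above control, not called (limma adjusted p = 0.0602), and Runx1 1.76 above. Runx2 itself was not measured, and whether Runx1 acts on Mmp13 in these cells was not tested.

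Of 16 measured other factors known for epithelial-mesenchymal transition, 4 rose and 3 fell under TGF-β (median -0.03, all genes -0.01). Of all genes 15.0% rose and 17.5% fell. On withdrawal 4 factors rose and 4 fell (median -0.15), against 21.8% and 22.1% of all genes. After withdrawal 5 were higher and 6 lower than control (median -0.07), against 21.7% and 23.6% of all genes. With poly-A spikes the counts were 4 and 6, 4 and 2, and 5 and 5, and with hybridization spikes 4 and 4, 3 and 9, and 4 and 10. Snai1, a repressor of Cdh1, rose by 2.04 and fell by 1.77, ending 0.27 above control, which was not called (limma adjusted p = 0.0601). Snai2 rose by 0.87 and by a further 0.28 (0.06 and not called after hybridization spike scaling), the same order as Twist1 and Prrx1, and Zeb2 rose by 1.67 and fell by 0.89, the order of Foxc2 and Runx1. Foxq1, a forkhead gene, fell by 1.23 and rose by 0.66, the order of Twist2.

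The genes with profiles most like a member were sought among 8915 brighter named genes, by the root-mean-square difference over the 6 arrays after subtracting the control mean. The closest to Twist1 were Cela1, Fn1 and Slc25a45, at 0.110, 0.128 and 0.131. Fn1, the fibronectin gene, rose by 1.65 under TGF-β and stood 2.11 above control after withdrawal. The closest to Prrx1 were Megf10, Pcolce and Ablim1, at 0.0891, 0.0898 and 0.0935; Pcolce encodes an enhancer of procollagen processing. The closest to Foxc2 were Palld, Metrnl and Ak1, at 0.150, 0.176 and 0.185, where Palld encodes the actin-associated protein palladin. The closest to Runx1 were Gng11, Ap1s2 and Rasgrp3, at 0.0929, 0.0964 and 0.132. The closest to Twist2 were Plgrkt, Tpd52 and Fem1b, at 0.0379, 0.0379 and 0.0410. These are descriptions over 6 arrays of 3 groups. Brighter here means a highest group mean above the median of such means. A gene low in control could thus be searched through its level in a treated group alone.

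Markers of other cell types were read beside these results, since Runx1, Prrx1 and Twist1 are also known from blood cells and fibroblasts. In bulk samples, fewer cells of a type and less RNA per cell cannot be told apart. The 9 measured leukocyte markers differed by -0.24 to 0.18 under TGF-β, not called in limma, and their mean level per array was 5.40 to 5.42 in control, 5.36 to 5.38 under TGF-β and 5.43 to 5.46 after withdrawal. Ptprc, which encodes CD45, lay at 3.86, 3.99 and 3.83. Cd68 alone was higher after withdrawal, by 0.89, and Tyrobp was lower, by 0.41. Of 8 fibroblast markers, Col3a1 rose by 1.62 under TGF-β and was 0.89 above control after withdrawal, while Pdgfra, Dcn, Lum, Thy1, Fap and Pi16 were called in no comparison. Mfap5 was lower after withdrawal than under TGF-β, by 0.21, and than in control, by 0.16 (limma adjusted p = 0.0178 and 0.0489). The mean fibroblast marker level was 4.92 to 4.95 in control, 5.09 to 5.16 under TGF-β and 5.02 on both withdrawal arrays. After hybridization spike scaling 7 leukocyte and 6 fibroblast markers were called lower after withdrawal than in control, as were 12634 of all 18193 genes. Of 8 luminal epithelial markers 5 fell and 0 rose under TGF-β, against 17.5% and 15.0% of all genes. The mean level of the 8 went from 10.12 on both control arrays to 8.60 and 8.66, and to 9.75 and 9.76 after withdrawal. On withdrawal 3 of the 8 rose and 2 fell (median 0.07), against 21.8% and 22.1% of all genes. Krt19, Cdh1 and Ocln fell most under TGF-β, by 3.82, 3.63 and 3.29, and rose on withdrawal by 2.93, 3.49 and 2.93. Epcam differed by 0.19 under TGF-β, not called, and fell by 0.27 on withdrawal. Cldn3 and Cldn7 were called in no comparison before spike scaling. The keratin genes Krt8 and Krt18 fell by 0.73 and 0.53 under TGF-β. On withdrawal Krt8 fell by a further 0.22 and Krt18 was not called. After withdrawal Krt8, Krt19 and Krt18 were still 0.94, 0.89 and 0.53 below control. Against control, 3 of the 8 were thus lower and 0 higher, against 23.6% and 21.7% of all genes. With poly-A and hybridization spikes 4 and 8 of them were lower.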

How the data were processed

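Total RNA was labelled with a 3' IVT kit, per the labels' protocols, and hybridised to 1-colour Affymetrix arrays. Each probe set has a deposited log2 value, which the authors computed with RMA (background correction, quantile normalisation, probe summary) per the submitters' processing notes; the RMA version is not given in the sources used here. Of 45101 probe sets in all, 64 were array controls and not tested, 34945 had 1 symbol, 932 several and 9160 none; 34741 matched RefSeq gene numbers (GRCm38.p6, names only), and 0 symbols were updated.

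The representative probe set was chosen without the group labels, by its mean over all 6 arrays. That mean can favour a probe set that is high in the treated groups. In control, the Runx1 probe sets 1427650_a_at (7.22) and 1452531_at (7.01) read above the representative (6.92). The representative was brightest through its TGF-β and withdrawal means, 9.14 and 8.68. limma 3.58.1 in R 4.3.3 fitted 1 linear model to all 6 arrays without covariates, moderated by eBayes (2.857 prior and 3 residual degrees of freedom), two-sided tests and Benjamini-Hochberg adjustment over all 18193 genes at 0.05. The script was tested on simulated data. Tables and figures used Python 3.11.15, pandas 2.3.3 and matplotlib 3.10.9.

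The members and lists were chosen with earlier results of these data known. The genes named are the members, up to 4 called genes per list and comparison with the largest differences, the E proteins, Cbfb, Runx3, Prrx2 and Foxc1, and the 3 most alike genes per member; marker genes and others beside a result were chosen after their values were seen. The alternatives tried were a replicate block, an intensity trend, dropping the 40% of genes with the lowest mean, averaging a gene's probe sets, dropping x, s and a probe sets, quantile normalisation, cyclic loess, spike scaling (24 poly-A and 18 hybridization probe sets), a fit to the groups compared, a fit over all probe sets, and leaving out each array.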

Additional observations from a re-analysis of the deposited data

How the results depend on the processing

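Over the 15 differences of the members, 126 of 255 recomputed values left the difference itself as it was, since the setting altered only the SE or did not touch that gene or group, and 129 gave another difference. In all 252 of 255 recomputed values kept their direction and their side of the threshold, 3 kept the direction and lost the call, and 0 reversed. Without 1 array, the arm left with 1 array is assumed to vary like the other groups. The 3 were Twist1 on withdrawal against TGF-β with hybridization spike scaling (0.24) and without the second withdrawal array (leaving out each array in turn gave 0.34 to 0.58), and Runx1 on withdrawal against TGF-β with poly-A spike scaling (-0.32). Leaving out an array of the group not compared gave the same fit as using only the groups compared. Some of the 255 values are thus repeats. Spike scaling shifts all genes of an array by 1 constant. The number of genes called on withdrawal against TGF-β went from 7983 to 5006 with poly-A scaling, and that on withdrawal against control from 8235 to 14289 with hybridization scaling; the other counts stayed within 1.5 times. With the replicate number as a block, 5519, 7688 and 7908 genes were called in the 3 comparisons, against 5901, 7983 and 8235, and the block changed no call of a member. Replicate 1 minus replicate 2 was taken per probe set in each group. These differences correlated at -0.0044 between control and TGF-β, -0.0013 between control and withdrawal and -0.0111 between TGF-β and withdrawal. No common replicate effect was seen, but this cannot tell whether same-numbered arrays shared a culture or batch. No detection calls or scanner intensities were used, so low levels (such as Foxc2 and all 6 Prrx1 probe sets in control, which lie under the array medians) may sit on background.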
